A study of Homo sapiens with 4 samples.

Results

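The PIM kinases PIM1, PIM2 and PIM3 were examined in RNA-seq data of MV4-11 cells, a human acute myeloid leukemia (AML) cell line, with and without knockdown of CEBPG. The 3 genes were taken by symbol and are covered by 4 RefSeq transcripts, out of 16490 genes with values and 28780 listed transcripts. The control hairpin sh-NC was present in 2 libraries and sh-CEBPG#3 in the other 2, the latter being a hairpin against CEBPG, a leucine-zipper transcription factor of the CEBP family. In the study's methods, hairpins were delivered with the pLKO.1-puro lentiviral vector and cells were selected with puromycin, so both groups share the vector and the selection. Total RNA was sequenced after TruSeq library preparation, and values are FPKM, the fragments of a transcript divided by its length and by the mapped reads of the library. With 1 CEBPG hairpin in the sequenced libraries, an effect of the hairpin and an effect of losing CEBPG cannot be told apart. Whether the libraries of 1 group were infected separately is not given in the sources used here, so p-values measure only the spread between these libraries, which may be technical. The PIM genes were selected on their FPKM differences in this same comparison, and these differences are therefore given as a description, with no test.

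The PIM kinases are serine/threonine kinases that need no phosphorylation by an upstream kinase to become active, so that their activity follows the amount of protein made. Their genes are switched on by cytokine and growth factor receptors through JAK kinases and STAT transcription factors, and in AML cells with an internal tandem duplication of the FLT3 receptor, which MV4-11 cells carry, STAT5 is the main link. The kinases phosphorylate the apoptosis regulator BAD, cell cycle inhibitors and translation factors, and many of these substrates are shared with AKT.

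The 3 genes lie on different chromosomes. In the GENCODE annotation of GRCh38, the assembly that the submitters' processing notes call hg38, the canonical transcript of PIM1 spans 37170152 to 37175428 on the plus strand of chromosome 6. That of PIM2 spans 48913182 to 48919024 on the minus strand of chromosome X, and that of PIM3 spans 49960772 to 49964072 on the plus strand of chromosome 22. Each has 6 exons. Coding sequences of 942, 936 and 981 nt were found for PIM1, PIM2 and PIM3, stop codon included. Aligned end to end, the coding sequences of PIM1 and PIM3 were 75.4% identical, against 65.3% for PIM1 and PIM2 and 64.9% for PIM2 and PIM3. The bases coding for the start of the catalytic loop, which holds the catalytic aspartate of the kinases, are shown because they lie in one of the most conserved parts of the family. They were read from the reading frame of each transcript and lie in exon 4 of each gene, at chr6:37171377-37171406, chrX:48915105-48915134 and chr22:49961697-49961726. Capitals mark the 21 of 30 bases that are the same in all 3 genes.
PIM1: CAcCGcGACATcAAGGAcGAaAAcaTcCTt
PIM2: CAtCGtGACATcAAGGAtGAgAAcaTcCTg
PIM3: CAcCGcGACATtAAGGAcGAaAAtcTgCTt
Even there the genes differ at single bases, and the longest run of bases shared by 2 of the full transcripts was 23 nt, between PIM1 and PIM3. It was 13 nt between PIM1 and PIM2 and 17 nt between PIM2 and PIM3.

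The promoters are shown so that those of PIM1 and PIM3, whose mRNA levels moved in opposite directions, can be set side by side. RefSeq promoter windows (GRCh38.p14) were cut to the 250 bases before the start of each gene, at chr6:37169902-37170151 for PIM1, chrX:48919025-48919274 on the minus strand for PIM2 and chr22:49960522-49960771 for PIM3. They are written on the strand of the gene, and capitals mark matches to the motifs searched, each on both strands.
PIM1: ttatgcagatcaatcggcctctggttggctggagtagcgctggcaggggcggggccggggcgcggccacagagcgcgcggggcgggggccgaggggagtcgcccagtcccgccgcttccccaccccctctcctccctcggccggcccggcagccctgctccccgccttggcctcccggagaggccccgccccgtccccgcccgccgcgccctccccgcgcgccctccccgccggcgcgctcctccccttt
PIM2: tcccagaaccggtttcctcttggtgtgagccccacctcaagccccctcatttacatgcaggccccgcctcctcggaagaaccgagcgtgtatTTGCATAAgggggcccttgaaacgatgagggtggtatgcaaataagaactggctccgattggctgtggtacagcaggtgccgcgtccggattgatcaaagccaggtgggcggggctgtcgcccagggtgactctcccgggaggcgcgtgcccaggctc
PIM3: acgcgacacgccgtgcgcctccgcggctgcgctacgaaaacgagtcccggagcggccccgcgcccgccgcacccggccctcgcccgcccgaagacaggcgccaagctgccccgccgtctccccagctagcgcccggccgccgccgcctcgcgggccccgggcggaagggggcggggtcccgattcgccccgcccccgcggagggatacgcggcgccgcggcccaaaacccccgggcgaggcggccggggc
The promoters of PIM1 and PIM3 were richer in G and C than that of PIM2, with 79.6% and 82.0% against 61.2%, where the median of 35116 promoters was 58.0%. The number of CG dinucleotides was 32 in PIM1, 47 in PIM3 and 15 in PIM2, against a median of 11. The letters TTGCNNAA, a CEBP site, matched once, in PIM2 from 158 to 151 bases before the start, and 9.05% of all promoters held a match on either strand. The STAT site TTCNNNGAA (6.57% of promoters), the composite site TTGCATCA of CEBP and ATF proteins (0.772%), the E-box CACGTG (6.34%) and the interferon-stimulated response element (3.02%) had no match in these windows in any PIM gene.

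PIM1 mRNA was lower and PIM3 mRNA higher upon CEBPG knockdown, while PIM2 mRNA was at a similar level in both groups. PIM1, the member first found as a site of proviral insertion in mouse lymphomas, stood at 58.5 and 60.9 FPKM in the control libraries, against 21.4 and 19.6 FPKM upon knockdown. Both knockdown libraries were far below both controls. The mean level of PIM1 went from 59.7 ± 1.69 FPKM to 20.5 ± 1.30 FPKM (SD, n = 2 each), or 34.4% of the control. The difference in log2(FPKM + 1), the scale of all log2 differences here, was -1.50, which stood at rank 26 from the lowest among the 12142 genes tested, those whose mean reached 0.5 FPKM. For comparison, 1.04% of the genes tested were lower by more than 2-fold at an adjusted p under 0.05 in limma, and 40.2% had both knockdown libraries below both controls. By level, PIM1 was above 93.1% of these genes in sh-NC cells and above 77.5% in sh-CEBPG#3 cells. Because the RNA is from bulk cultures, fewer cells with PIM1 mRNA and less PIM1 mRNA per cell cannot be told apart.

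PIM3, the member most like PIM1 in coding sequence, stood at 24.0 and 23.9 FPKM in the controls and at 35.2 and 32.9 FPKM upon knockdown. The groups did not overlap, and the knockdown libraries were the higher ones. The mean of PIM3 went from 24.0 ± 0.0637 FPKM to 34.0 ± 1.61 FPKM (SD, n = 2 each), or 142% of the control. The log2 difference was 0.49, and 91.2% of the genes tested had a lower one.

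PIM2, which in blood cells is known as a survival kinase, stood at 9.57 and 10.6 FPKM in the controls and at 10.4 and 8.99 FPKM upon knockdown. The groups overlapped, with the highest and the second lowest value both in sh-NC cells. The means were 10.1 ± 0.697 FPKM and 9.68 ± 0.971 FPKM (SD, n = 2 each), and the log2 difference of -0.05 was smaller than the spread between libraries of a group. Its sign changed when either sh-NC replicate 2 (0.01) or sh-CEBPG#3 replicate 2 (0.04) was left out. All 3 members passed the filter on low values, and 2 of them had groups that did not overlap, as did 71.7% of all genes tested, so the lack of overlap alone does not set them apart.

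**Figure D1:**
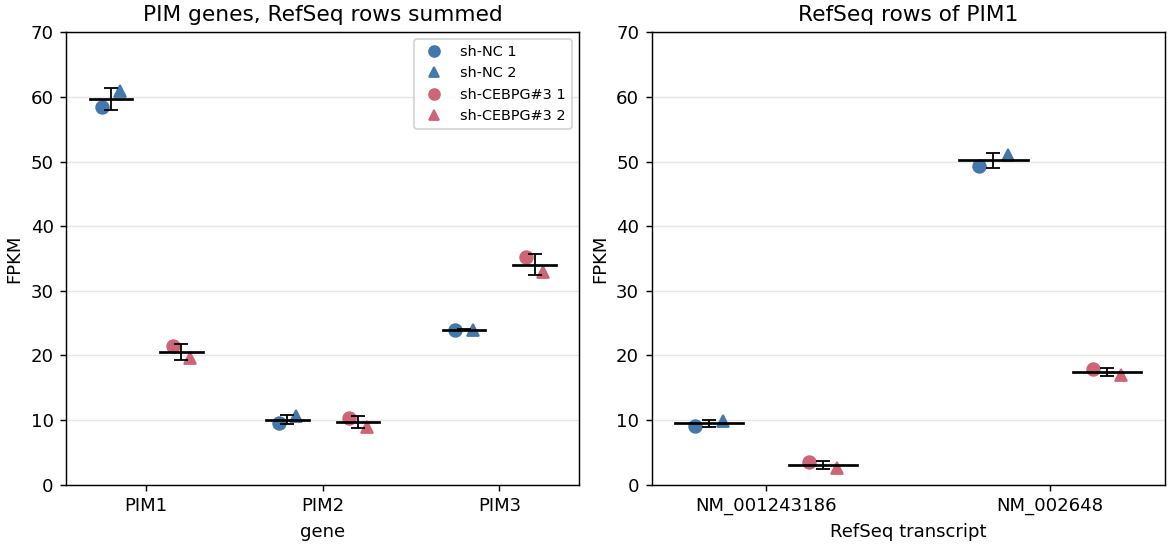
FPKM of the PIM genes (left) and of the 2 RefSeq transcripts of PIM1 (right) in each library, with blue for sh-NC, red for sh-CEBPG#3, circles for replicate 1 and triangles for replicate 2. Black lines give the mean and SD of each group (n = 2). PIM1 falls from a mean of 59.7 to 20.5 FPKM, PIM3 rises from 24.0 to 34.0 FPKM, and the PIM2 libraries lie between 8.99 and 10.6 FPKM in both groups.

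PIM1 is listed by 2 RefSeq transcripts, and both were lower in the knockdown libraries. NM_002648 had 49.4 and 51.0 FPKM in sh-NC cells and 17.9 and 17.0 FPKM in sh-CEBPG#3 cells, so that 34.8% of the control mean remained. NM_001243186 had 9.11 and 9.91 FPKM in sh-NC cells and 3.51 and 2.63 FPKM in sh-CEBPG#3 cells, with 32.3% remaining. The second transcript made up 15.6% and 16.3% of the PIM1 level in the controls and 16.4% and 13.4% of it upon knockdown. These shares overlapped between the groups, so no shift between the transcripts was seen. Both transcripts come from 1 gene, and how the program behind the FPKM values divided their common reads is not given in the sources used here. PIM2 (NM_006875) and PIM3 (NM_001001852) are listed by 1 transcript each.

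The order of the PIM genes by level, compared per length in FPKM, was not the same in the 2 groups. In both sh-NC libraries it was PIM1, PIM3, PIM2, and in both sh-CEBPG#3 libraries it was PIM3, PIM1, PIM2. In each group, neighbours in the order were further apart than the spread between the 2 libraries. The ratio of PIM1 to PIM3, which a scaling factor of the whole library cannot change, was 2.44 and 2.55 in the controls, against 0.610 and 0.596 upon knockdown. Summed over the 3 genes, PIM mRNA went from 93.7 ± 2.33 FPKM to 64.2 ± 3.88 FPKM (SD, n = 2 each), or 68.6% of the control. The mean of PIM1 fell by 39.1 FPKM, that of PIM3 was 10.1 FPKM higher, and that of PIM2 differed by -0.385 FPKM. PIM1 gave 63.5% and 63.8% of the sum in the control libraries and 32.0% and 31.9% in the knockdown libraries. PIM3 gave 26.1% and 25.1% of the sum, and 52.5% and 53.5% upon knockdown.

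**Figure D2:**
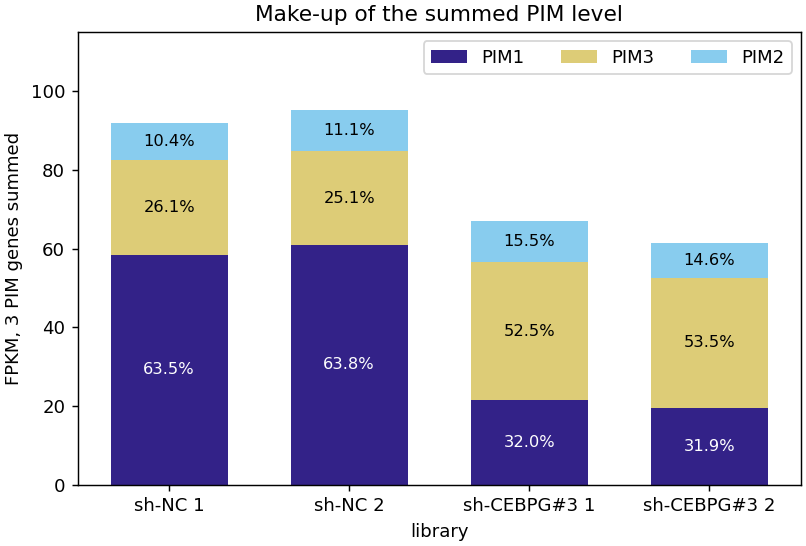
Stacked bars of the FPKM of PIM1, PIM3 and PIM2 in each of the 4 libraries, with the share of each gene in the sum written in its segment. PIM1 makes up 63.5% and 63.8% of the control sums and 32.0% and 31.9% of the knockdown sums, where PIM3 is the largest segment.

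**Figure D3:**
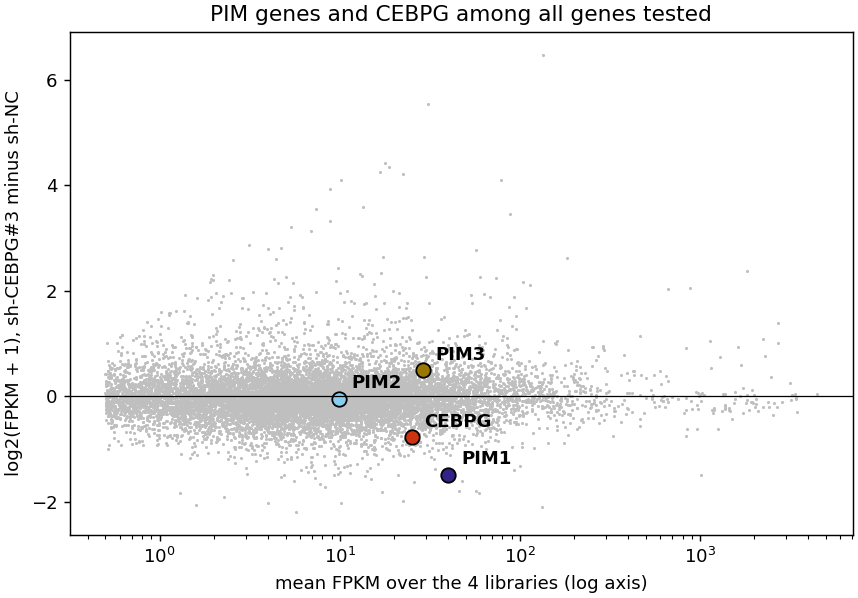
Mean FPKM over the 4 libraries (log axis) against the difference in log2(FPKM + 1), sh-CEBPG#3 minus sh-NC, with 1 grey point for each of the 12142 genes tested. PIM1 (-1.50) lies near the lower edge of the cloud and below the targeted gene CEBPG (-0.78), PIM2 (-0.05) in its middle and PIM3 (0.49) in its upper part.

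The targeted gene CEBPG went from 30.4 and 33.6 FPKM in the controls to 19.2 and 17.1 FPKM upon knockdown, a log2 difference of -0.78 (standard error 0.09, adjusted p = 8.88e-05). This and the following adjusted p-values are from limma over all 12142 genes tested, with Benjamini-Hochberg adjustment, and a gene was called at an adjusted p under 0.05. FPKM totals ran from 364353 to 389766 per library, and the read depth is unknown, since FPKM values carry no counts. Of 12 myeloid leukemia markers, 10 were tested, 3 were called lower and 4 higher. That is 70% called, against 42.2% of all genes tested. LYZ (566.8 and 610.5 FPKM against 3126 and 2982 FPKM), MPO (log2 difference 0.62) and CD33 (0.37) were called higher, the last not without sh-CEBPG#3 replicate 1 (0.31, adjusted p = 0.0507) or by its most abundant transcript (0.35, adjusted p = 0.0520), and MEIS1 (-0.87) was called lower. Without that library 4 of the markers were called. Their summed level was 1154 to 1252 FPKM in sh-NC cells and 3595 to 3773 FPKM in sh-CEBPG#3 cells, a difference that came from LYZ. Without LYZ the sum was 587 and 641 FPKM in the controls and 647 and 613 FPKM upon knockdown, and the groups overlapped. CD14 did not pass the filter on low values and has no call here. It was at 0.187 and 0 FPKM in sh-NC cells and at 1.09 and 0.697 FPKM in sh-CEBPG#3 cells. CD34 was not analysed here. Of 12 markers of T, B, erythroid, epithelial and stromal cells, 4 had values and summed to 12.01 to 13.1 FPKM and 10.3 to 11.1 FPKM, mostly KRT18. PAX5, a B-cell factor, was called lower (-0.37, adjusted p = 0.0301), and was not without sh-NC replicate 2 (-0.31, adjusted p = 0.147) or sh-CEBPG#3 replicate 1 (-0.33, adjusted p = 0.0967), without the filter on low values (adjusted p = 0.0584) or by its most abundant transcript (-0.67, adjusted p = 0.130). Of 23 interferon-stimulated genes, 22 were tested and 22 were called higher, against 18.5% of all genes tested. The median log2 difference was 3.03, and IFI6 (6.47), CXCL10 (5.54), OAS2 (4.43) and OAS1 (4.25) led the list. The filter used the mean of all 4 libraries, so genes low in controls, such as CXCL10 (mean 0.335 FPKM), passed through their knockdown values. MX1, which did not pass, had means of 0.178 FPKM in sh-NC cells and 0.215 FPKM in sh-CEBPG#3 cells. The count and the median therefore partly follow from the filter. Without the filter 22 were also called, all higher. The summed level of the list was 113 to 124 FPKM in sh-NC cells and 1156 to 1202 FPKM in sh-CEBPG#3 cells. The part of the interferon and myeloid genes in the PIM differences was not tested.

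The receptors, JAK kinases and STAT factors upstream of the PIM genes were, where they changed, mostly higher in sh-CEBPG#3 cells. The list has 22 genes and also holds the phosphatases PTPN6 and PTPN11. Of the 22 genes, 20 were tested, 2 were called lower and 9, PTPN6 among them, higher. The median log2 difference was 0.10 against -0.04 over all genes. Over all genes tested, 42.2% were called, 23.8% as lower and 18.5% as higher. JAK3, the kinase bound to the common gamma chain of cytokine receptors, rose from 1.55 and 1.49 FPKM to 3.93 and 3.66 FPKM (log2 difference 0.93, adjusted p = 0.00011). IL6ST, the shared signalling chain of the IL-6 receptor family (0.87), and IFNGR2, a chain of the interferon gamma receptor (0.72), were also called higher. The number called was 6 without sh-CEBPG#3 replicate 1, 1 lower and 5 higher.

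Of FLT3 and the STAT5 genes, STAT5B was called, as lower. FLT3 stood at 67.6 and 75.0 FPKM in the controls and at 66.0 and 62.8 FPKM upon knockdown. The log2 difference of FLT3 was -0.14 and was not called (adjusted p = 0.161). It was called with quantile normalization (-0.17, adjusted p = 0.0134), with equal FPKM totals (-0.17, adjusted p = 0.0136) and without sh-NC replicate 1 (-0.22, adjusted p = 0.0283). STAT5A had 6.10 and 7.75 FPKM against 7.49 and 7.08 FPKM, with overlapping groups (0.07, adjusted p = 0.642). STAT5B fell from 12.6 and 13.4 FPKM to 10.13 and 10.05 FPKM (-0.34, adjusted p = 0.00894).

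Genes known as STAT5 targets moved in both directions, with more of them lower. Of 16 genes, all were tested, and 9 were called lower and 4 higher, which is 81.2% called against 42.2% of all genes, with a median log2 difference of -0.35. The list was drawn up with the PIM1 result known and holds genes that other pathways control as well. DUSP6, a phosphatase that switches off ERK and is also a readout of that kinase, fell from 13.0 and 13.9 FPKM to 4.95 and 5.33 FPKM (-1.24, adjusted p = 4.94e-06). ID1, an inhibitor of basic helix-loop-helix factors, fell by 1.13 on the log2 scale, and CCND1, cyclin D1, by 0.71.
CISH, the feedback inhibitor that is the best known STAT5 target, fell from 19.5 and 19.7 FPKM to 12.4 and 12.4 FPKM (-0.63, adjusted p = 0.000167). The feedback inhibitors SOCS1 (-0.42) and SOCS2 (-0.29) and the cytokine OSM (-0.63) were also called lower, while SOCS3 was not called (0.07, adjusted p = 0.659) and was at -0.0132 without sh-CEBPG#3 replicate 1. SOCS2 lost its call without sh-CEBPG#3 replicate 1 (-0.30, adjusted p = 0.0601) or replicate 2 (-0.29, adjusted p = 0.0719) and by its most abundant transcript (-0.36, adjusted p = 0.0566). The survival gene MCL1 (0.48) and the repressor BCL6 (0.69) were called higher, BCL6 not by its most abundant transcript (0.15, adjusted p = 0.770). The survival gene BCL2L1 (0.27, adjusted p = 0.0334) and CCND2, cyclin D2 (0.26, adjusted p = 0.0479), were also called higher, but these calls were fragile. BCL2L1 lost its call with any 1 library left out (0.24 to 0.30, adjusted p from 0.0581 to 0.132), with a block for the replicate number (adjusted p = 0.0612) and without the filter on low values (adjusted p = 0.0677), and the log2 difference of its most abundant transcript was -0.00447. CCND2 lost its call without sh-NC replicate 1 (0.19, adjusted p = 0.237), sh-CEBPG#3 replicate 1 (0.22, adjusted p = 0.182) or sh-CEBPG#3 replicate 2 (0.30, adjusted p = 0.0685), with the block (adjusted p = 0.0781), without the filter (adjusted p = 0.0976) and by its most abundant transcript (adjusted p = 0.128). CISH, SOCS1, SOCS2, SOCS3, OSM, BCL2L1, MCL1, BCL6 and CCND2 lie outside the rule for named genes and were added after their values were seen, to show both directions of the list. With the most abundant RefSeq transcript standing for each gene, 8 of the 16 were called, 7 lower and 1 higher.

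MYC, which is both a STAT5 target and a protein that PIM1 stabilizes, stood at 217 and 249 FPKM in the controls and at 139.5 and 136.4 FPKM upon knockdown. Both knockdown libraries were lower than both controls (-0.75, adjusted p = 6.48e-05).

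Among other transcription regulators that act on PIM genes, 12 of 13 were tested, and 4 were called lower and 4 higher. The share called was 66.7%, against 42.2% of all genes tested. The NF-kB subunits NFKB2 and RELB, of the non-canonical branch, were higher, NFKB2 from 4.47 and 5.36 FPKM to 19.2 and 19.1 FPKM (1.77, adjusted p = 7.24e-07) and RELB with a log2 difference of 1.37. MEIS1, the partner of HOXA9 in leukemias with a rearranged KMT2A gene, fell from 6.65 and 7.34 FPKM to 3.42 and 3.29 FPKM (-0.87, adjusted p = 8.31e-05), and ETS2 fell by 0.47. With the most abundant transcript standing for each gene, 5 of these genes were called.

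**Figure D4:**
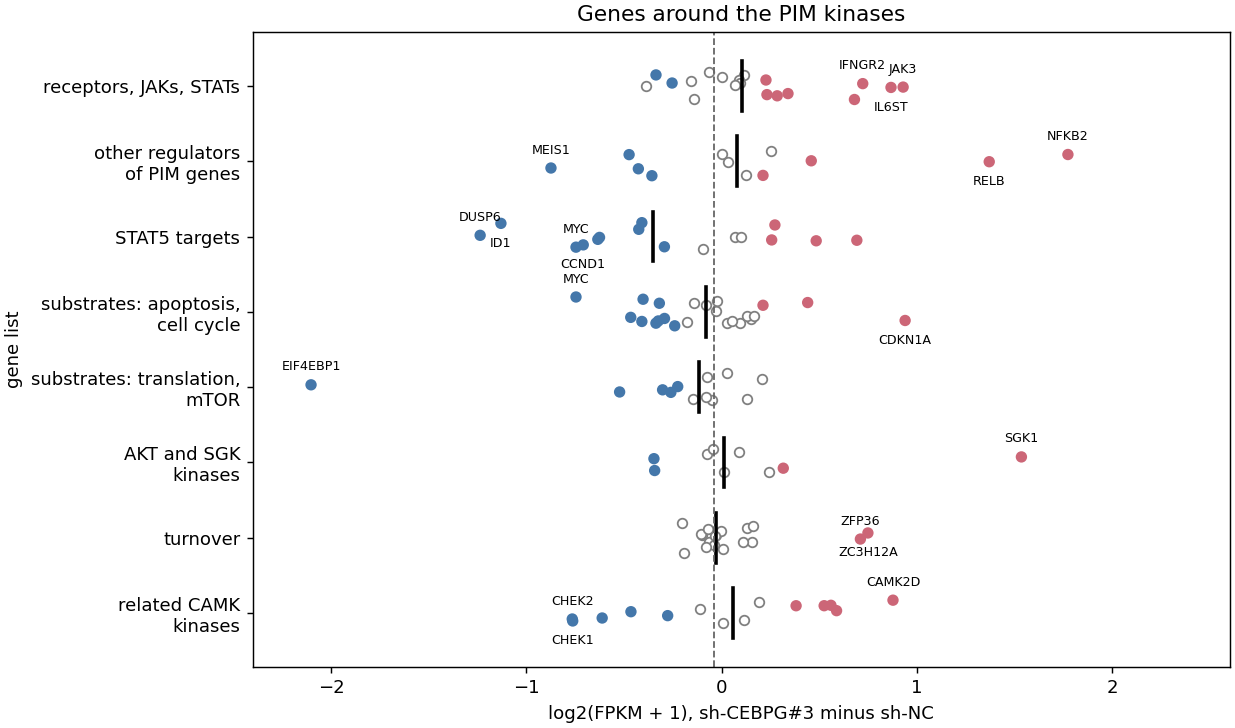
Difference in log2(FPKM + 1), sh-CEBPG#3 minus sh-NC, of tested genes on 8 lists around the PIM kinases, with 1 point per gene, blue for genes called lower, red for genes called higher and open for genes not called (limma, adjusted p under 0.05). Black bars give the median of each list and the dashed line the median of all genes (-0.04), and called genes beyond 0.7 are named. Genes not reported here have no point. The STAT5 targets have the lowest median (-0.35), and EIF4EBP1 (-2.10) is the lowest point.

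The mRNAs of PIM kinase substrates in apoptosis and the cell cycle moved in both directions. PIM kinases act on these proteins by phosphorylation, which mRNA levels do not measure. Of 24 genes, 23 were tested, and 9 were called lower and 3 higher. This is 52.2% called against 42.2% of all genes, with a median log2 difference of -0.08 against -0.04. BAD, the pro-apoptotic protein that PIM kinases inactivate, had 5.78 and 6.33 FPKM in sh-NC cells and 7.53 and 6.19 FPKM in sh-CEBPG#3 cells and was not called (0.15, adjusted p = 0.278). The CDK inhibitors among the substrates were higher. CDKN1A (p21) rose from 169 and 179 FPKM to 342 and 326 FPKM (0.94, adjusted p = 5.91e-06). CDKN1B (p27) rose from 16.6 and 19.2 FPKM to 25.3 and 23.8 FPKM (0.44, adjusted p = 0.00314). CDC25C, a phosphatase that drives entry into mitosis, was called lower (-0.47, adjusted p = 0.0135), but not without sh-NC replicate 2 (-0.33, adjusted p = 0.108), without the filter on low values (adjusted p = 0.0602) or by its most abundant transcript (-0.32, adjusted p = 0.4999). The number called in the list was 7 without sh-NC replicate 2 and 6 without sh-CEBPG#3 replicate 2.

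Among the substrates and outputs in translation and mTOR signalling, 12 of 13 genes were tested, 5 were called lower and 0 higher in limma. The share called, 41.7%, was close to the 42.2% of all genes. The number was 2 without sh-CEBPG#3 replicate 1 and also 2 without sh-CEBPG#3 replicate 2. With a block for the replicate number it was 3. EIF4EBP1, a repressor of cap-dependent translation that PIM and mTOR signalling hold in check, fell from 205 and 226 FPKM to 49.97 and 48.9 FPKM (-2.10, adjusted p = 3.84e-08). RPTOR, the mTORC1 subunit that recruits substrates, fell by 0.52 (adjusted p = 0.00189). EIF4G1, the scaffold of the cap-binding complex, fell by 0.30 and lost its call without sh-CEBPG#3 replicate 1 (-0.28, adjusted p = 0.0896) and without replicate 2 (-0.32, adjusted p = 0.0563). PRKAA1, a subunit of AMP-activated kinase, fell by 0.26 and lost its call without sh-NC replicate 1 (-0.25), sh-CEBPG#3 replicate 1 (-0.30) or sh-CEBPG#3 replicate 2 (-0.22), with adjusted p from 0.0517 to 0.154, with a block for the replicate number (adjusted p = 0.0710) and by its most abundant transcript (-0.43, adjusted p = 0.0738). EIF4B, the helicase cofactor that PIM2 phosphorylates, had 252 and 275 FPKM in sh-NC cells and 227 and 223 FPKM in sh-CEBPG#3 cells (-0.23, adjusted p = 0.0288). This call was lost without sh-NC replicate 2 (-0.16, adjusted p = 0.0749), sh-CEBPG#3 replicate 1 (-0.24, adjusted p = 0.179) or sh-CEBPG#3 replicate 2 (-0.21, adjusted p = 0.238), and with a block for the replicate number (adjusted p = 0.133), without the filter on low values (adjusted p = 0.0694) and by the most abundant transcript (-0.23, adjusted p = 0.0904).

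The AKT and SGK kinases, which phosphorylate many of the same proteins, did not move as a group. Of 11 genes, all were tested, and 3 were called lower and 3 higher, with a median log2 difference of 0.01. The share called was 54.5%, against 42.2% of all genes tested. SGK1 rose from 1.31 and 1.36 FPKM to 5.89 and 5.64 FPKM (1.53, adjusted p = 3.20e-06). PIK3CG, a catalytic subunit of PI3-kinase, fell by 0.35, without a call when sh-NC replicate 2 (-0.24, adjusted p = 0.199) or sh-CEBPG#3 replicate 2 (-0.30, adjusted p = 0.0913) was left out, without the filter on low values (adjusted p = 0.0939) or by its most abundant transcript (-0.30, adjusted p = 0.399).

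PIM proteins are short-lived and held stable by HSP90, and PIM1 and PIM3 mRNAs are known to be unstable. Of 18 genes on a list of PIM protein and mRNA turnover, all were tested, 2 were called and both were higher, 11.1% against 42.2% of all genes. With quantile normalization and with equal FPKM totals 7 were called, 3 lower and 4 higher, and without sh-NC replicate 1 the number was 5. ZFP36 (tristetraprolin), which binds AU-rich elements and speeds mRNA decay, rose from 28.7 and 26.8 FPKM to 46.2 and 45.8 FPKM (0.71, adjusted p = 5.73e-05). The RNase ZC3H12A rose from 3.30 and 2.83 FPKM to 6.52 and 5.18 FPKM (0.75, adjusted p = 0.000808). The letters TATTTAT, the core of an AU-rich element, were found 4 times after the stop codon of the canonical PIM1 transcript, 2 times in PIM3 and 0 times in PIM2, searched on the transcript strand with overlapping matches counted. Of 19701 canonical coding transcripts, 31.0% held at least 1 match, 13.2% at least 2 and 3.09% at least 4. These regions are 1337 nt long in PIM1, 949 nt in PIM2 and 945 nt in PIM3, where the median was 1019 nt. PIM1 and PIM3 both held the letters, and decay of the PIM mRNAs was not tested.

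The genes most like each PIM gene were found by the Euclidean distance between log2(FPKM + 1) profiles over the 4 libraries, each centred on its own mean. Those nearest to PIM1 were SMC1A, a cohesin subunit (distance 0.0376), UBASH3B, a phosphatase (0.0643), and SUPT16H, a subunit of the histone chaperone FACT (0.0827), and 20 genes lay within a distance of 0.2. SMC1A had 14.6 and 15.3 FPKM in sh-NC cells and 4.86 and 4.56 FPKM in sh-CEBPG#3 cells. For PIM3 the nearest were C1GALT1C1, CLN3 and SLC25A28, with distances from 0.0124 to 0.0201, and 1052 genes lay within 0.2. The log2 difference of CLN3, a lysosomal protein, was 0.51 and turned to -0.54 when its most abundant transcript stood for the gene. For PIM2 the nearest were PPP1R18, SMAD5 and LMNA, with distances from 0.00473 to 0.0155, and 3435 genes lay within 0.2. Fewer genes lay near PIM1 than near PIM3 or PIM2. The profiles hold the knockdown difference on which the PIM genes were selected, so these numbers largely restate its size.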

How the data were processed

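The authors filtered the reads of 4 MV4-11 libraries, mapped them with HISAT2 2.0.5 to hg38 according to the submitters' processing notes, and deposited FPKM values per RefSeq transcript and library. The program and annotation behind the FPKM values are not given in the sources used here. Of 28780 transcripts, 28581 had values, which were summed by gene symbol to 16490 genes. Genes whose mean reached 0.5 FPKM (12142) were compared as log2(FPKM + 1) with limma 3.58.1 in R 4.3.3 (lmFit, eBayes with a trend, no block). This scale understates the changes of low genes. The fit was also tried on simulated data with large changes added to well-expressed genes. That trial does not cover smaller changes or low genes. The study used DESeq2, which takes counts, so it was not applied here. The depth is unknown, and no floor or interval is given.

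The members and the gene lists were chosen with earlier results of these data known. Named genes are the PIM genes, CEBPG, FLT3, STAT5A, STAT5B, MYC, BAD, EIF4B and EIF4EBP1, in each list up to 4 called genes with the largest changes and no overlap between groups, and the 3 genes most like each PIM gene. Some of the genes this rule names are not reported here. Alternatives were pseudocounts, filters, scalings, a block for the replicate number, leaving out single libraries, and the most abundant transcript per gene. Sequences were read with Python 3.11.15 and Biopython 1.88 from RefSeq (GRCh38.p14) promoters, which matched all 3 genes, and GENCODE 44 transcripts.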

Additional observations from a re-analysis of the deposited data

How the results depend on the processing

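The log2 difference of PIM1 (-1.50) lay between -1.54 and -1.47 over 8 alternatives, and when single libraries were dropped it ran from -1.56 to -1.43. That of PIM3 (0.49) lay between 0.46 and 0.50, and between 0.44 and 0.53. PIM2 (-0.05) lay between -0.08 and -0.0005, and between -0.15 and 0.04. The filters and the replicate block cannot change a log2 difference in this design, so they say nothing about its stability. Nor can the most abundant transcript change that of PIM2 or PIM3, which have a single listed transcript. CEBPG (-0.78) lay between -0.84 and -0.76, and between -0.87 and -0.70, and was called throughout. Fits without a library assume that the lone library of its group varies like the others.

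With the most abundant transcript per gene, 2864 genes were called against 5128, and the counts were 5 for the other regulators, 8 for STAT5 targets, 5 for substrates in apoptosis and cell cycle, 3 for those in translation, 6 for CAMK kinases, 3 for myeloid markers and 0 for markers of other cells. Markers of other cells were also at 0 without a filter. The turnover count of 2 was 4 when the mean had to reach 1 FPKM and 7 with quantile normalization or equal FPKM totals. With each library left out, the counts ran from 6 to 11 for receptors, JAKs and STATs, 6 to 12 for substrates in apoptosis and cell cycle, 2 to 5 for those in translation, 2 to 5 for turnover, 4 to 9 for myeloid markers and 0 to 1 for markers of other cells. What causes these shifts was not tested.

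Of single genes, the log2 difference changed sign with the most abundant transcript for SMAD5 (0.34), CLN3 (-0.54) and BCL2L1 (-0.00447). With each library left out it ran from -0.0800 to 0.22 for STAT5A, -0.0132 to 0.15 for SOCS3, -0.15 to 0.0451 for PPP1R18, -0.14 to 0.0308 for SMAD5 and -0.16 to 0.0362 for LMNA. Same-numbered libraries deviated with a correlation of 0.0606 across genes, and the 2 pairs share only a number. With the replicate block the translation count was 3.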

Other observations

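Among 16 kinases of the CAMK group, to which the PIM kinases belong, 14 were tested, and 5 were called lower and 5 higher (adjusted p under 0.05 in limma). This is 71.4% called against 42.2% of all genes tested, with a median log2 difference of 0.06. The checkpoint kinases CHEK1, from 9.83 and 9.71 FPKM in sh-NC cells to 5.29 and 5.41 FPKM in sh-CEBPG#3 cells, and CHEK2, from 12.9 and 13.4 FPKM to 7.49 and 7.15 FPKM, were lower, with log2 differences of -0.76 and -0.77. The most abundant transcript of CHEK1 was not called (-0.58, adjusted p = 0.280 in limma). MELK, a kinase of dividing cells, was lower by the sum of its transcripts (-0.61), but its most abundant transcript was not called (-0.16, adjusted p = 0.779 in limma). CAMK2D, a calcium/calmodulin-dependent kinase, rose from 2.51 and 2.41 FPKM to 5.56 and 5.15 FPKM (0.88).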
